A study of Ovis aries with 2 samples.

Results

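KDM6A on the sheep Y-chromosome is the male-specific copy of a gene that also has a copy on the X-chromosome. CpG methylation was examined here at every CpG site between the annotated ends of the Y copy and in the 10 kb on each side of it. That gave 1133 CpG sites of the 372890 measured on the chromosome. The sites were taken by position, while the gene itself was picked with earlier results of these data known. The DNA came from lung of 1 male fetus at 100 days of gestation, an F1 of a Churro sire and a Friesian dam, so that the Y-chromosome is of Churro origin. PacBio HiFi reads gave 1 set of values and Oxford Nanopore (ONT) reads another. Both libraries come from this animal, there was no other group, and the platforms are technical repeats of each other, so no test between animals could be made. Every ± value below is an SD between CpG sites, and neighbouring CpG sites share reads.

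KDM6A encodes a histone demethylase that removes methyl groups from a lysine of histone H3 associated with Polycomb silencing, and it also works as a subunit of a complex that marks active enhancers. The Y-linked copy, called UTY in human and mouse, is one of the few genes that mammalian Y-chromosomes have kept in common with the X-chromosome, and in those species it is transcribed in many tissues with a weaker demethylase activity. In mammalian genomes most CpG sites are methylated, while the starts of widely transcribed genes usually lie in CpG-dense islands that are not. The transcribed part of such genes, in turn, is usually highly methylated.

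In the assembly ARS-UI_Ramb_v3.0 the gene occupies positions 7692585 to 7859400 of chromosome Y, on the minus strand, and spans 166816 bp. RefSeq lists it as LOC132659058 with 23 coding transcripts and 1 non-coding transcript. The copy on the X-chromosome, at 43953883 to 44135150, is annotated over 181268 bp. No other annotated gene lies inside the Y copy. DDX3X, an RNA helicase gene on the same strand, ends 27080 bp before its start, and the GPM6B pseudogene lies 31762 bp past its end. The next protein-coding gene on that side is the short copy of the deubiquitinase gene USP9X, 42218 bp away. The gene table gives outer borders only, so exons and introns were not told apart.

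The 1133 sites fell into 88 sites of an unmethylated part around the start, 935 sites of the remaining gene body, 53 sites of the upstream flank and 57 sites of the downstream flank. Each of them had 23 to 152 valid calls on PacBio (median 39) and 43 to 134 on ONT (median 96). For PacBio the methylation of a site is the percentage that the authors' pileup model gave. For ONT it is the number of methylated calls divided by the number of calls past either threshold, with both strands added up.

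The start of KDM6A was almost free of methylation on both platforms. Within 500 bp of the annotated start there were 56 CpG sites, 29 before it and 27 at or past it. Their methylation was 3.12% ± 0.665 on PacBio, with a lowest value of 2.4%, a median of 3.0% and a highest value of 6.3%. On ONT it was 1.71% ± 1.60, with a lowest value of 0%, a median of 1.13% and a highest value of 7.32%. The CpG site at the start position itself had 2.8% on PacBio, from 25 calls, and 2.27% on ONT, from 2 methylated calls of 88. All 56 sites were under 20% on both platforms, where 7.55% of the CpG sites of the whole chromosome and 8.45% of those past GPR143, the last gene of the pseudoautosomal region (PAR), were. Only 5 of the 56 exceeded 5% on either platform.

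Pooled over calls, ONT had 85 methylated calls of 5047 at the start, or 1.68% (95% Wilson interval 1.36 to 2.08, which covers counting error only). The PacBio model gave no value under 1.7% anywhere on the chromosome. Its estimated number of methylated reads at the start was 2 of 1433, or 0.140% (0.0383 to 0.507). The modelled 3.12% and the 0.140% from estimated counts are 2 deposited measures of the same reads, and they differed by more than the platforms did, which lay 1.41 percentage points apart.

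The unmethylated part was taken as the unbroken run of CpG sites around the start whose running mean over 5 sites lay under 50% on both platforms. It reached from 7857564 to 7860190, over 2627 bp with 88 CpG sites, or 33.5 per kb. It lay mostly inside the gene, reaching 1836 bp past the start and 790 bp before it. The part within the gene makes up 1.10% of the length of KDM6A. Its methylation was 3.49% ± 1.98 on PacBio and 2.23% ± 3.34 on ONT, both of which describe the run and follow in part from how it was chosen. Of its sites, 34 before the start had 3.15% ± 0.935 and 2.03% ± 3.001, and 54 at or past the start had 3.70% ± 2.40 and 2.36% ± 3.56. In 19 of the 88 sites no methylated ONT call was found among 46 to 102 calls, which allows a share of up to 6.52% at the fewest and 2.94% at the most calls. The length of the run depended on the setting. With a threshold of 60%, or a running mean over 9 sites, it was 3298 bp. It then reached 2197 bp past the start and 1100 bp before it. With ONT alone it was 3208 bp, reaching 2417 bp past the start, and with a running mean over 3 sites 2988 bp. A threshold of 40%, or PacBio alone, left it at 2627 bp.

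**Figure D1:**
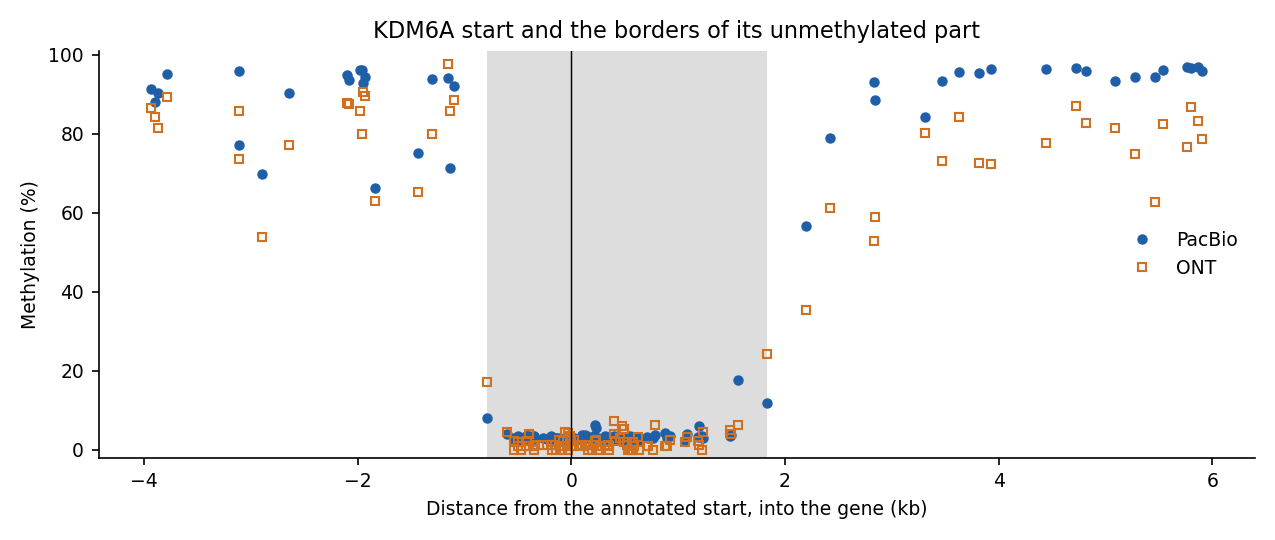
Methylation in percent of each CpG site from 4 kb before to 6 kb past the annotated start of KDM6A, with filled circles for PacBio and open squares for ONT, by distance from the start in kb (positive into the gene). The grey band is the unmethylated part, which reaches 790 bp before and 1836 bp past the start, and no CpG site lies between 790 and 1100 bp before it.

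The border before the start was sharp. The last site of the unmethylated part, 790 bp before the start, had 8.0% on PacBio and 17.2% on ONT. The next site, 310 bp farther at 1100 bp before the start, had 92.2% and 88.5%. No CpG site lies between them, so the border can be placed no more closely than that gap. The sites that follow, 1132, 1154 and 1309 bp before the start, gave PacBio values of 71.4%, 94.0% and 93.9% and ONT values of 85.7%, 97.5% and 80%. Both platforms thus went from under 20% to over 80% between a pair of neighbouring sites.

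The border inside the gene was more gradual. From 1495 bp past the start outwards, PacBio methylation was 3.9%, then 17.6% at 1562 bp, 12% at 1836 bp, 56.7% at 2197 bp and 78.9% at 2417 bp. On ONT the same sites had 4.12%, 6.25%, 24.2%, 35.5% and 61.1%. The site at 1836 bp is the last one inside the run, and the one at 2197 bp is the first one outside it. The distance from the last site under 20% on both platforms to the first site of at least 60% on both was 855 bp on this side, with 2 sites between, and 310 bp with none between on the other side. ONT values rose more slowly than PacBio values here, since the sites at 2833 and 2843 bp had 52.9% and 59.0% on ONT but 93.1% and 88.5% on PacBio. These sites had 70 and 105 ONT calls and 27 PacBio calls each.

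The gene body was highly methylated on average, with a few low places. Its 935 sites had 88.95% ± 12.8 on PacBio, with a lowest value of 12.3%, a median of 94.0% and a highest value of 97.5%. On ONT they had 76.5% ± 13.5, with a lowest value of 8.26%, a median of 79.8% and a highest value of 96.9%. From the deposited estimated counts, another measure than the modelled percentage, PacBio had 35528 methylated reads of 39761, or 89.4%, with a Wilson interval of 89.05 to 89.7. The modelled percentage weighted by calls was 88.3%. Pooled over calls, ONT methylation was 76.6%, with an interval of 76.4 to 76.9. By the means over sites, the body lay 85.8 points above the start on PacBio and 74.8 points above it on ONT. Both differences are several times as large as the gap between the platforms, which was 12.5 points over the sites of the body. On both platforms, 452 of the 935 sites (48.3%) were at 80% or more, against 18.1% of all CpG sites of the chromosome and 9.3% of those past GPR143. Of the other genes listed below, the gene bodies of ZRSR2Y, EIF2S3 and the long copy of USP9X had higher shares, 59.7%, 52.5% and 50%. ZFY had 48.0% and DDX3X 39.5%, and the rest of the list lay lower. In KDM6A, 18 sites of the gene body (1.93%) were under 50% on both platforms. The low run at the start had been taken out of the gene body by its own values, however, while the chromosome's shares keep such runs. With the run put back, the whole gene had 72 of 989 sites (7.28%) under 50% on both platforms, against 26.2% on the chromosome and 34.4% past GPR143. Of the whole gene's sites, 45.7% were at 80% or more on both platforms.

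**Figure D2:**
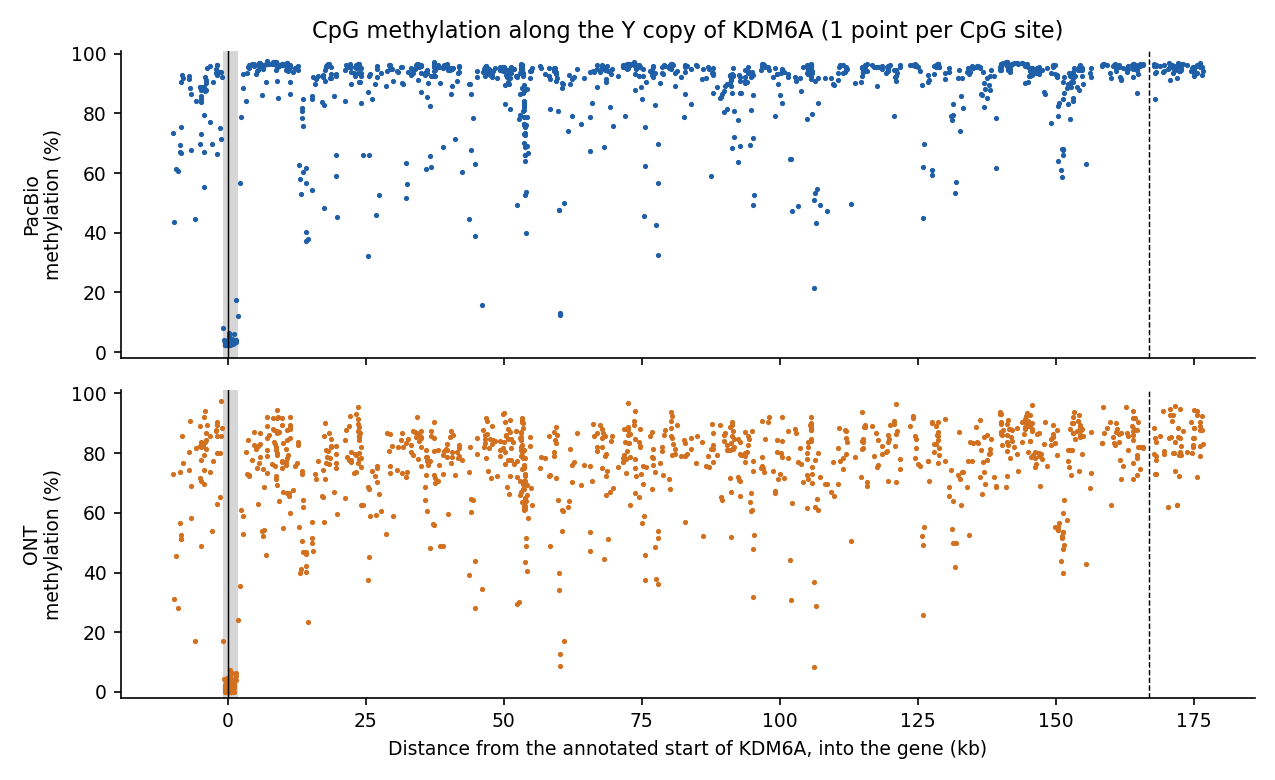
Methylation in percent of all 1133 CpG sites on PacBio (upper panel) and ONT (lower panel), by distance in kb from the annotated start, with the solid line at the start, the dashed line at the annotated end and the grey band over the unmethylated part. The 88 sites of the band lie near 0, and most sites of the gene body and the downstream flank lie in the upper part on both platforms.

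In steps of 10 kb from the start, mean methylation of the gene body stayed within 82.8% to 94.9% on PacBio and 67.9% to 84.1% on ONT over 17 bins. The bin at 100 to 110 kb had the lowest PacBio value, 82.8% ± 18.9 over 50 sites, but 4 of these are sites with 70 or more PacBio calls, and without them it had 84.8%. The bin at 60 to 70 kb, which holds no such site, was then the lowest on both platforms, with 83.1% ± 20.2 on PacBio and 67.9% ± 20.6 on ONT over 44 sites. Near the end of the gene, methylation was high and even: the bin at 140 to 150 kb had 94.7% ± 3.03 and 84.1% ± 6.83, and the last bin, from 160 kb on, had 94.9% ± 2.002 and 83.9% ± 6.20. Between these, the bin at 150 to 160 kb had 87.7% ± 10.3 and 75.6% ± 16.0.

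The downstream flank, past the end of the gene, had 94.98% ± 1.88 on PacBio and 83.6% ± 7.94 on ONT, and 57 of its 57 sites were at 80% or more on PacBio and 42 on ONT. The upstream flank had 81.7% ± 13.4 and 73.8% ± 17.5, and 33 of its 53 sites reached 80% on PacBio and 27 on ONT. Over the whole chromosome, 42.1% of sites reached 80% on PacBio and 19.3% on ONT. The chromosome's shares keep low runs, but the 34 low sites before the start had been taken out of the upstream flank by their values. None of these 34 reached 80% on either platform, so the upstream flank and the chromosome are not compared like for like. Without those 34 sites, 2 of the 53 sites of the upstream flank (3.77%) were under 50% on both platforms, against 26.2% on the chromosome. All of the 34 were under 50% on both platforms too, so these shares are not like for like either. Of the 2 sites, the one 5994 bp before the start had 44.7% and 17.1%, and the one 9685 bp before it had 43.7% and 31.3%. CpG density was 6.42 sites per kb in the downstream flank, 5.99 in the upstream flank and 5.71 in the gene body. The values of the upstream flank and the gene body leave out the unmethylated part. That part had 43.1 sites per kb over 788 bp before the start and 29.4 per kb within the gene, so the order of the 3 densities holds only without it.

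High CpG density was also found where methylation was high. A stretch of 917 bp inside the gene, from 7805456 to 7806372, or 53028 to 53944 bp past the start, held 49 CpG sites, 53.4 per kb. The window within 500 bp of the start held 56.3 per kb. The largest number of sites within 250 bp on each side of a site was 31 in the stretch and 32 at the start. Yet the stretch had 84.3% ± 12.7 on PacBio and 74.7% ± 10.8 on ONT, and none of its sites was under 50% on both platforms. Taking all sites with 15 or more CpG sites within 250 bp on each side, the 73 in the unmethylated part did not exceed 6.3% on PacBio or 7.32% on ONT. The 51 in the gene body, 2 of them at 23868 bp and just past it, were at or above 39.9% and 43.6%. These values do not overlap, but the unmethylated part had been set by its low values.

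**Figure D3:**
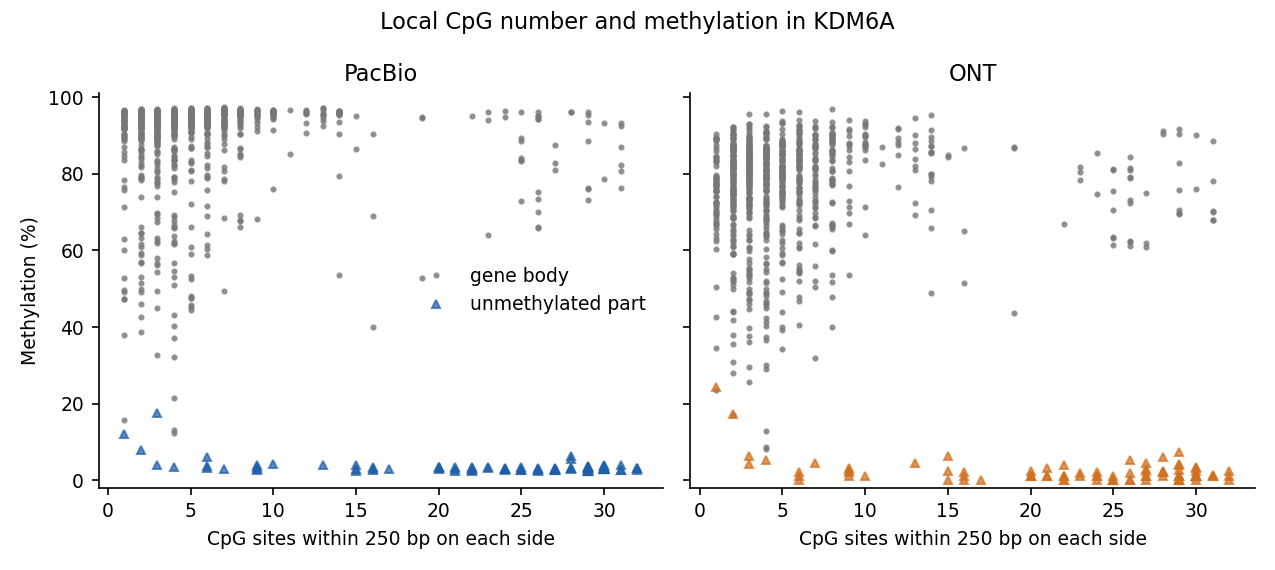
Methylation in percent of each CpG site against the number of CpG sites within 250 bp on each side of it, the site included, for PacBio (left) and ONT (right). Triangles are the 88 sites of the unmethylated part and dots the 935 sites of the gene body. With 15 or more sites within 250 bp, the triangles stay under 8% and the dots are at or above 39.9%.

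Within the dense stretch, methylation was not even. The 24 sites on the side of the start had 94.1% ± 2.63 on PacBio and 82.1% ± 7.57 on ONT. The 25 sites on the far side had 74.9% ± 11.2 and 67.5% ± 8.49, a split that was made after the values had been seen. The site with the lowest PacBio value, 53944 bp from the start at the far edge, had 39.9% on PacBio and 51.4% on ONT. Of all ONT calls in the stretch, 18.3% fell between the thresholds for methylated and unmethylated, against 15.7% in the whole gene body and 9.13% at the start. Over all 935 sites of the gene body, local CpG number and methylation had a Pearson r of 0.00523 on PacBio and 0.0631 on ONT, given as a description over sites that share reads.

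Sites low on both platforms were few inside the gene. The 18 sites of the gene body under 50% on both platforms lay in 11 places, when sites within 500 bp of each other are joined, and 7 of these places held a single low site. The other 11 low sites shared 4 places. None of the 18 was nearer to the start than 14229 bp or farther than 125941 bp. The running mean over 5 sites fell under 50% on both platforms at 4 of the 935 sites, in 2 places. A stretch was counted only where at least 5 such running means followed each other, and by that rule the gene body held 0. With a threshold of 60%, or with ONT alone, it held 2, at these places. One of the places was around a group of 4 neighbouring sites, from 60032 to 60221 bp past the start at 7799179 to 7799368. In the order of rising position, which starts at the site farthest from the start, PacBio gave 12.3%, 13.2%, 47.5% and 47.7% and ONT gave 8.79%, 12.7%, 40% and 34.3%. The first 2 of these sites, 2 bp apart, were the only sites of the gene body under 20% on both platforms. The other place was around a group of 4 sites, from 14229 to 14590 bp past the start, which held 3 low sites and had a mean of 44.3% for PacBio and 38.0% for ONT. In windows of 1 kb, the one at 14 to 15 kb had 46.7% on PacBio and 39.8% on ONT over 5 sites, and the one at 60 to 61 kb had 54.9% and 36.0% over 8 sites. Other windows were intermediate, above all on ONT. Among them, 151 to 152 kb had 77.2% and 53.0% over 10 sites, and 106 to 107 kb had 61.25% and 52.4% over 8 sites. The window at 13 to 14 kb had 71.7% and 56.5% over 8 sites. A further site 106188 bp past the start had 21.5% and 8.26%.

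PacBio gave higher methylation than ONT at 866 of the 935 sites of the gene body (92.6%), and over the whole chromosome at 78.8%. The mean difference was 12.5 points ± 10.4, against 8.77 points ± 12.6 over the chromosome, and ranged from -31.0 to 50.5 points. At the same sites, the platforms had a Pearson r of 0.686, and over the 17 bins of 10 kb an r of 0.875. The difference was largest in the first 10 kb of the gene body, with 17.4 points, where the median PacBio depth was the lowest, 27 calls per site. It was smallest at 100 to 110 kb, with 9.59 points, but without the 4 deep sites of that bin it was 11.5 points there, and the smallest was then 9.96 points at 40 to 50 kb. Over the 17 bins the difference and the median PacBio calls had an r of -0.686, and of -0.564 without the deep sites.

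**Figure D4:**
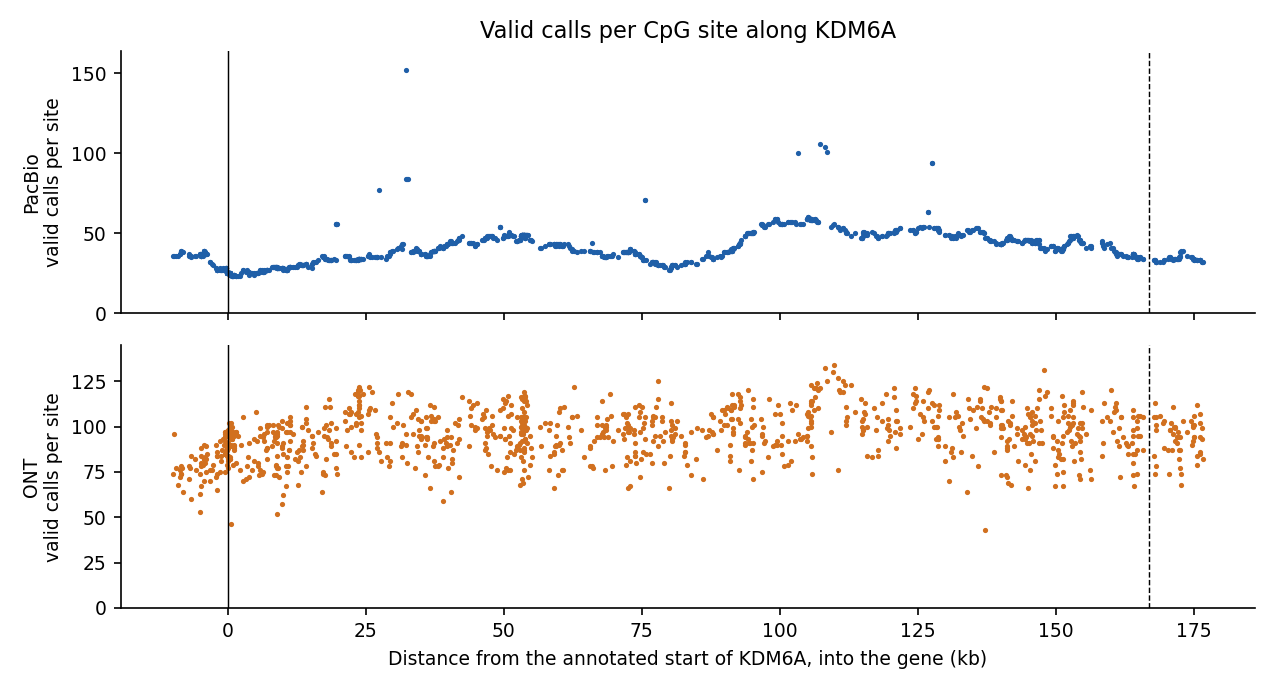
Valid calls per CpG site on PacBio (upper panel) and ONT (lower panel) by distance in kb from the annotated start, with the solid line at the start and the dashed line at the annotated end. PacBio depth is lowest around the start, where the unmethylated part had a median of 25 calls against 43 in the gene body, and 13 single sites stand out with 71 to 152 calls.

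PacBio depth was lower around the start than in the gene. The median was 25 valid calls per site in the unmethylated part and 43 in the gene body, a ratio of 0.581. For ONT the medians were 91 and 98, a ratio of 0.929. Whether depth bears on the methylation values was not tested. The share of ONT calls between the thresholds was 9.01% in the unmethylated part and 15.7% in the gene body. If all of them are counted as methylated, the start has 10.6% on ONT. If all are counted as unmethylated, the gene body has 64.5%, and the body still lies 63.0 points above the start. Whether any read of the X-chromosome copy was aligned to the Y copy was not tested.

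At 13 sites of the gene body, PacBio had 70 or more valid calls, a limit chosen after the values had been seen. They lay in 7 places and had 71 to 152 PacBio calls but 80 to 132 ONT calls (median 103). Their methylation was 62.6% ± 15.5 on PacBio and 71.7% ± 15.6 on ONT. At the other 922 sites it was 89.3% ± 12.3 and 76.6% ± 13.5. ONT gave the higher value at 9 of the 13 sites and at 60 of the other 922. The deepest site, 32218 bp past the start, had 51.6% from 152 PacBio calls and 71.9% from 96 ONT calls. Leaving these sites out changed the methylation of the gene body to the 89.3% and 76.6% just given.

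KDM6A was set beside 10 other genes of the male-specific region, which were listed with earlier results of these data known. They are genes of the X-degenerate class, whose relatives on the X-chromosome no longer recombine with them, and the sex-determining gene SRY. The start of KDM6A had the second lowest methylation of the 11 genes on both platforms. EIF2S3, which encodes a subunit of a translation initiation factor, had the lowest, with 2.97% ± 0.491 on PacBio and 1.46% ± 1.57 on ONT over 57 sites. Next came ZRSR2Y, a splicing gene, on PacBio, with 3.29% ± 0.695, and SHROOM2, a gene of the cytoskeleton, on ONT, with 1.77% ± 1.95. These neighbours in the order differed from KDM6A by less than the SD between sites. Its neighbour DDX3X had 3.51% ± 3.22 and 2.67% ± 3.85, and the zinc finger gene ZFY had 4.22% ± 3.77 and 2.12% ± 2.61.

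**Figure D5:**
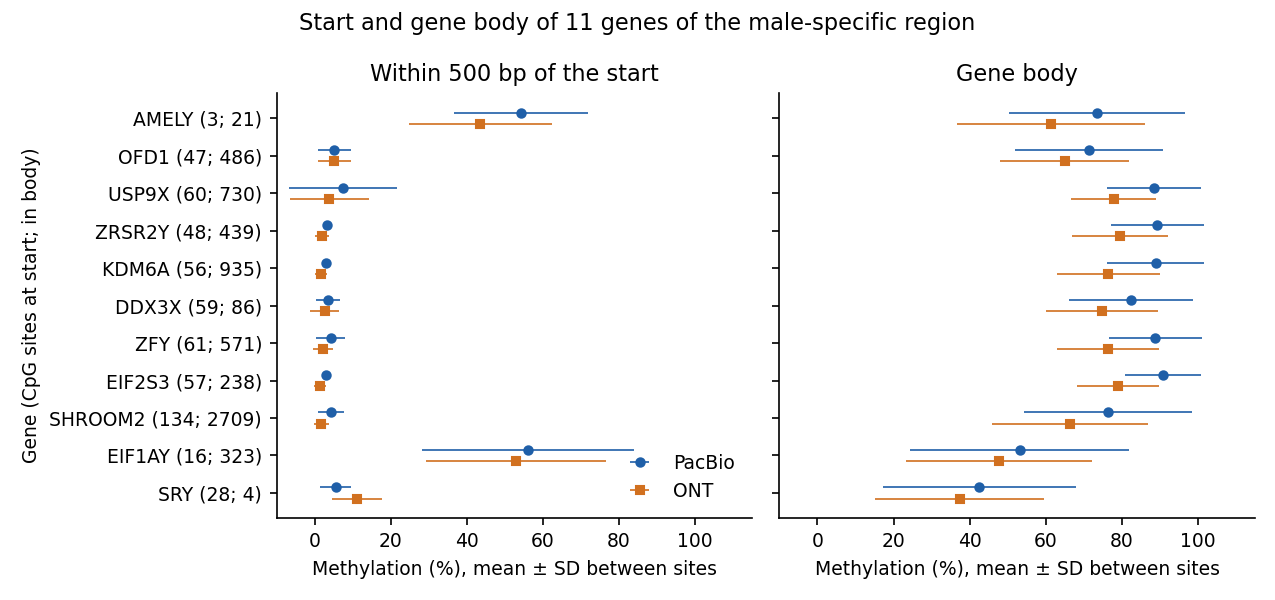
Mean methylation in percent within 500 bp of the start (left) and in the gene body without the unmethylated part (right) of 11 genes of the male-specific region, with circles for PacBio, squares for ONT and bars of 1 SD between CpG sites. KDM6A lies with the low starts, at 3.12% and 1.71%, and with the high gene bodies, at 88.95% and 76.5%.

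Low starts were shared by most of the listed genes. Of the 11, 9 had under 20% on both platforms. The amelogenin gene AMELY had 54.3% ± 17.7 on PacBio and 43.6% ± 18.8 on ONT from 3 sites, and the translation initiation factor gene EIF1AY had 56.1% ± 27.9 and 53.0% ± 23.7 from 16 sites. Among all 220 annotated gene starts of the chromosome's RefSeq table with at least 5 CpG sites within 500 bp, 15 (6.82%) were under 20% on both platforms, and among the 62 protein-coding ones 11 (17.7%). In that set, too, the start of KDM6A was second from the lowest on both platforms.

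The length of the unmethylated part was neither the longest nor the shortest of the list. With 2627 bp, KDM6A ranked 6 of 11, between 5198 bp in SHROOM2 and none in AMELY. SRY, with 2727 bp, ranked just above it. Other settings gave KDM6A up to 3298 bp and were not applied to the other genes, so the rank holds for this setting only. EIF2S3, ZFY and DDX3X had 2411, 3700 and 2324 bp. In KDM6A the part had 3.49% and 2.23% methylation, against 5.53% and 4.11% in EIF2S3, 5.87% and 3.37% in ZFY and 6.01% and 4.50% in DDX3X. Each run was picked by its own low values, so these means depend on the edge sites that it took in. Within 500 bp of the start, EIF2S3 had the lower values, 2.97% and 1.46% against 3.12% and 1.71% in KDM6A. The gene body of KDM6A, the longest gene of the list, ranked 3 from the highest on PacBio, after EIF2S3 (90.8% ± 10.01) and ZRSR2Y (89.4% ± 12.2). It ranked 4 on ONT, after ZRSR2Y (79.5% ± 12.7), EIF2S3 (79.0% ± 10.8) and the long copy of USP9X (78.0% ± 11.2). All these differences were smaller than the SD between sites. The lowest gene bodies were those of EIF1AY, with 53.1% ± 28.8 and 47.7% ± 24.5, and SRY, with 42.5% ± 25.4 and 37.4% ± 22.3 over 4 sites.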

How the data were processed

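For PacBio, the authors called methylation with Primrose, aligned the reads with pbmm2 and deposited a modelled methylation percent per CpG site from pb-CpG-tools, with the count of reads and estimated counts of methylated and unmethylated reads. The ONT calls were made by the authors with Dorado and a model of 5hmC and 5mC, aligned with Winnowmap and filtered by a rule not given in the sources used here. The authors deposited counts from modbam2bed of methylated, unmethylated and between-threshold calls per strand, with their percent. The thresholds were 20% and 80%. The deposited ONT score was not used. Values are not normalized. How 5hmC calls were counted is not given in the sources used here.

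ONT strands were paired by position and added up. Sites needed 5 valid calls, which all reached. The chromosome had 17648083 PacBio and 45147797 ONT valid calls, with medians of 45 and 103 per site. Regions are summarised by the mean of their CpG sites. Gene positions come from RefSeq (ARS-UI_Ramb_v3.0), and names and strands from the study's gene list, which matched all 241 genes by start and end. The genes named are KDM6A, 10 listed genes of the male-specific region and the nearest neighbours. The gene, lists and rules were chosen with earlier results of these data known. No test was made, since both libraries come from 1 animal. In 20 simulated profiles of the 1133 sites, both planted borders were found within 1 CpG site each time. Each profile had an even low level inside sharp borders, an even high level outside them, and sites drawn independently. The profiles therefore do not show how closely a gradual border is placed, or how an uneven gene body is handled. No sequence was used here, so the planned motif search was not made. Python 3.11.15, NumPy 2.4.6, pandas 2.3.3, SciPy 1.17.1 and matplotlib 3.10.9 were used.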

Additional observations from a re-analysis of the deposited data

How the results depend on the processing

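No paired analysis was possible because the study has 1 animal, with 1 library per platform. A methylation value was read as moved when its change reached the SD of the PacBio and ONT values, and lengths, counts and ranks when they changed by more than 1.5 times. Coverage minimums of 10 and 20 calls left out no site, so their 20 values say nothing about stability. Of the other 82 values under an alternative, 71 did not move. The bar was wide where the platforms differed, at 8.80 points in the gene body. By the rule for lengths, an unmethylated part of up to 3298 bp also counted as not moved. The start moved to 0.143% on PacBio with estimated counts and to 10.6% on ONT with between-threshold calls as methylated. With those calls as unmethylated, ONT had 64.5% in the gene body, 63.3% in the upstream flank and 70.7% in the downstream flank, and the body lay 63.0 points above the start. As medians over sites, the upstream flank had 87.8% on PacBio and 80% on ONT. Low stretches of the gene body (5 low running means in a row) rose from 0 to 2 with a threshold of 60% and to 2 with ONT alone, in both cases near 14 and 60 kb from the start. Within 1000 bp of the start, KDM6A ranked 1 in place of 2 on PacBio. Leaving out sites with 70 or more PacBio calls was chosen after seeing the data, and it changed which bin of 10 kb was lowest on PacBio (83.1% at 60 kb) and which had the smallest difference between platforms (9.96 points at 40 kb). Depth, as low as 23 PacBio calls per site near the start, limits single sites more than regions.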

Other observations

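On ONT, the strands of the gene body had equal methylation in sum, with 76.6% on the plus and 76.7% on the minus strand. Among 932 sites with at least 20 calls on each strand, the strands differed by 8.60 points as a median of the absolute difference. The plus strand was more than 30 points higher at 37 sites and the minus strand at 28, together 6.97% of the sites. Over the chromosome the same limits gave 6.54% of 369530 sites and a median of 8.12 points. At 95098 bp past the start, the strands had 5.26% and 50.9%.

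CpG sites with no other CpG site within 500 bp were rare in the gene body. PacBio methylation was 86.0% ± 14.8 at these 9 sites and 89.4% ± 12.5 at the 509 sites with a neighbour within 50 bp. ONT methylation was 75.9% ± 11.2 and 77.2% ± 13.9.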
